A study of Mus musculus with 8 samples.

Results

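Aminoacyl-tRNA synthetases were followed in the liver of neonatal mice in which *Atf4* was intact or deleted in hepatocytes. The members were the rows of the raw count table whose symbol was on a list of 39 genes, out of 24411 gene symbols in the table. They comprise 20 cytosolic enzymes, 3 cofactors that hold cytosolic enzymes together (*Aimp1*, *Aimp2* and *Eef1e1*), and 16 mitochondrial enzymes, whose symbols end in 2. All 39 passed the filter on low counts, with 58 to 4044 counts in a library, and were tested among 13633 genes. *Gars* and *Kars* count as cytosolic here, although each gene also encodes the mitochondrial form of its enzyme.

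A synthetase attaches one amino acid to its tRNA, and the charged tRNA then delivers that amino acid to the ribosome. Hepatocytes use one set of enzymes in the cytosol, where secreted proteins such as albumin are made, and a second set, encoded by other nuclear genes, for translation inside mitochondria. ATF4 is the main transcription factor that the integrated stress response induces. Many cytosolic synthetases are commonly listed among its target genes, together with enzymes of amino acid synthesis. TCS (triclosan) is an antimicrobial compound once common in household products.

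All mice were C57BL/6, were null for mouse *Ugt1* and carried the human *UGT1* genes in its place (hUGT1), and had floxed *Atf4* alleles. In hUGT1/Atf4F/F mice (F/F) the gene was intact, and in hUGT1/Atf4ΔHep mice (ΔHep) it was deleted by *Alb-Cre*, which the albumin promoter drives in hepatocytes, so that the other cells of the liver still have it. Pups of either genotype were given vehicle or 50 mg/kg of TCS by oral gavage once a day for 4 days, the first at 10 days of age, while the sequencing methods give the age as 14 days. Each library was made from the combined liver RNA of 2 mice of either sex, with 2 libraries in each of the 4 groups (n = 2), and p values here measure the spread between these pools.

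The libraries held 11624143 to 25573210 counts. *Atf4* was 58.6 to 62.8 CPM (counts per 1000000 counts of a TMM-scaled library) in the 4 F/F libraries and 17.4 to 19.7 CPM in the 4 ΔHep libraries. Averaged over treatments its log2 fold change was -1.72 (SE 0.05, adjusted p = 1.68e-06 from edgeR), so the labels of genotype were borne out in all 8 libraries. Which exons are floxed is not given in the sources used here. Summed hepatocyte markers (8 genes, *Alb* among them, none at 0 in all libraries) reached 132958 to 162868 CPM. The other marker lists were far below. Stellate cells reached 1055 to 1426 CPM, endothelium 465 to 622 and Kupffer cells 429 to 657. Bile duct cells, neutrophils, lymphocytes, red cell precursors and pancreatic acinar cells were under 100. Of 8 red cell genes listed, 7 were in the count table and 3 were at 0 in all libraries. Of 7 acinar genes 1 was at 0 in all libraries. The pools differed in sex makeup. *Xist*, a transcript of females, was 0.346 to 23.2 CPM in F/F vehicle 1 and 2, ΔHep vehicle 2 and ΔHep TCS 1. In the other 4 libraries it was 718 to 778 CPM. Summed Y-linked genes (4 listed) were 163 to 179 CPM where *Xist* was low and 73.8 to 92.9 CPM where it was high. The F/F comparison of TCS with vehicle thus set pools with *Xist* against pools nearly without it. Each ΔHep group held 1 pool of either kind, so the genotypes differed in sex makeup within each treatment as well. The median log2 fold change of the Y-linked genes was -0.55 for the deletion under vehicle and 0.68 under TCS. F/F vehicle 2 and ΔHep vehicle 1 also stood apart by the 45S rRNA gene *Rn45s*, at 1250 and 1344 CPM against 798 to 871 CPM in the other 6.

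Short stretches of promoter show which members hold the sequence that ATF4 is known to bind. The motif searched was TGATGNAA, where N is any base, on both strands, in the 300 bases from 250 before to 50 after each transcription start (RefSeq, build GRCm38.p6, the build mm10 of the files). Promoters were found for 30 of the 39 members, and not for *Cars*, *Hars*, *Lars*, *Nars*, *Rars*, *Vars*, *Wars*, *Hars2* and *Pars2*. Of 13 cytosolic enzymes, 5 held the motif (*Aars*, *Gars*, *Iars*, *Tars* and *Yars*), against 0 of 3 cofactors, 0 of 14 mitochondrial enzymes and 4.51% of 27025 genes with a promoter (3.97% of 32851 promoters). *Mars*, which had the lowest p of all members in the comparison of genotypes, had no match in this window. Shown 5′ to 3′ on the strand of the gene, with the motif or its reverse complement in capitals, the promoters of *Iars* (chr13:49681880-49682179), *Yars* (chr4:129189653-129189952) and *Mars* (chr10:127311737-127312036, minus strand) are given whole, because these members differed most between genotypes among those with a promoter. Shorter stretches are given for *Aars* (chr8:111033710-111033878), which holds 2 matches, *Tars* (chr15:11399620-11399719, minus strand) and *Gars* (chr6:55037925-55038024).
Iars: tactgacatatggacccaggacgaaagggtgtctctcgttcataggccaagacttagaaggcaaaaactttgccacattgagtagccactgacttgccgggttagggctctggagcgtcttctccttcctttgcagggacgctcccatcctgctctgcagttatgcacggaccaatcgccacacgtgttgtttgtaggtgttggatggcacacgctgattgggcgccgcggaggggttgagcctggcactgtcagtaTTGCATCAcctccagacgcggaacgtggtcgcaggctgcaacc
Yars: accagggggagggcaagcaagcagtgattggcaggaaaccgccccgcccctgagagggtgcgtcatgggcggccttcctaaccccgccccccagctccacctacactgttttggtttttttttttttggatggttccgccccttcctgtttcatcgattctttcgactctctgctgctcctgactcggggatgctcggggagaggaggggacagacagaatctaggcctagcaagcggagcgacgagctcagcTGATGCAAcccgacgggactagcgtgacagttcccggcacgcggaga
Mars: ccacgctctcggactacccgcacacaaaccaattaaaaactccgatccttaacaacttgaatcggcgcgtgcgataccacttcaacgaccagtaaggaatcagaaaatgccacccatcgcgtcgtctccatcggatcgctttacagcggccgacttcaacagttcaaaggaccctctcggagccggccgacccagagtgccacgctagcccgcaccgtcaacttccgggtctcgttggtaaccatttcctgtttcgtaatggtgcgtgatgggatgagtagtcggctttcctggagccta
Aars: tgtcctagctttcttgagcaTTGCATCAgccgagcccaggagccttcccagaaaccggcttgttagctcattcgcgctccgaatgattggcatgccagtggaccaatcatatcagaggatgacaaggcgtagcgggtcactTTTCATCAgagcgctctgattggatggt
Tars: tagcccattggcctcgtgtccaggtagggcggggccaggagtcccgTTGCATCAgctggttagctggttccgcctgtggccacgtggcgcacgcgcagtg
Gars: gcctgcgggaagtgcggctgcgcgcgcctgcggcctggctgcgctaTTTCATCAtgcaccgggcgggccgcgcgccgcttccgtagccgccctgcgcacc
Counted from 1 at the start site, the match of *Yars* begins at base 4 and reads along the gene, and that of *Iars* begins at base 8 and reads against it. In *Tars* and *Gars* the match begins at positions -15 and -30 from the start, and in *Aars* one match begins at -112 and the other at 10. Under the strict form TGATGCAA, *Iars*, *Yars*, *Tars* and *Aars* still matched, 4 of 13 cytosolic enzymes against 1.03% of genes (0.895% of promoters). In a list of 22 other ATF4 target genes with a promoter, 8 held TGATGNAA, among them *Asns* and *Slc7a11*. A match describes the letters of this window and was not tested as a binding site.

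Levels were first compared per kilobase of exon (GENCODE M21, union of exons), as the mean CPM over the 8 libraries. The cytosolic enzymes were the more abundant class, with a median of 12.1 CPM per kb against 4.69 for the mitochondrial enzymes and 2.95 for the cofactors. With the longest transcript as the length these medians were 16.1, 6.89 and 4.17, in the same order. The alanine enzyme *Aars* (18.3 CPM per kb), the asparagine enzyme *Nars* (18.01) and the histidine enzyme *Hars* (16.05) were highest, and *Mars2*, the mitochondrial methionine enzyme, was lowest (0.445). *Cars*, at 3.80, was the lowest cytosolic enzyme on this scale. With the longest transcript *Hars* (19.7) was below *Lars2* (28.4), *Eprs* (27.1), *Kars* (26.2) and *Dars*, and *Cars* (7.77) above *Farsa* (5.86) and *Wars* (7.20), so that these places depend on the length used. Among mitochondrial enzymes *Iars2* (10.7, isoleucine) and *Lars2* (9.96, leucine) stood above the rest, which lay between 0.445 and 6.16.

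Deletion of *Atf4* in hepatocytes went with lower mean levels of several cytosolic synthetases, led by *Mars* and *Cars*, while 12 of 16 mitochondrial enzymes had a log2 fold change above 0, but no member passed the test in edgeR. Averaged over vehicle and TCS, 0 of 39 members had an adjusted p under 0.05, where 0.0440% of all genes tested were called (6 genes, *Atf4* among them). DESeq2 called 2 members, *Mars* (adjusted p = 0.000737) and *Cars* (adjusted p = 0.0334), both lower in ΔHep, where it called 0.0975% of the 12311 genes that it gave an adjusted p (12 genes). At an unadjusted p under 0.05 from edgeR, 6 of 23 cytosolic members were lower in ΔHep (*Mars*, *Cars*, *Nars*, *Iars*, *Lars* and *Yars*), where 2.07% of all genes were lower at that level, and 0 were higher, where 1.83% of all genes were. Of the 16 mitochondrial enzymes, 0 had such a p in either direction.

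*Mars* encodes the methionine enzyme of the cytosol, a member of the multisynthetase complex, and lies at chr10:127296221-127311786 (mm10). It was 54.4 and 46.0 CPM in F/F vehicle, 51.2 and 56.6 in F/F TCS, 39.2 and 33.6 in ΔHep vehicle, and 37.2 and 38.6 in ΔHep TCS. All 4 ΔHep libraries were below all 4 F/F libraries, a separation that 1.01% of all genes tested showed in this direction and 1.23% in the other. Its log2 fold change averaged over treatments was -0.49 (SE 0.08, adjusted p = 0.206 from edgeR), with -0.46 under vehicle and -0.51 under TCS. With no filter on low counts edgeR gave an adjusted p of 0.0183. Its exons share 68 bases with *Ddit3*, a stress transcription factor on the opposite strand (1.99% of its exon length), whose own level was 3.22 to 5.56 CPM. Whether strand was used in counting is not given in the sources used here.

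*Cars*, the cysteine enzyme, was 33.6 and 27.6 CPM in F/F vehicle, 30.4 and 25.9 in F/F TCS, 24.0 and 20.1 in ΔHep vehicle, and 20.6 and 18.2 in ΔHep TCS. Its F/F and ΔHep libraries did not overlap either, so that *Mars* and *Cars* were the only 2 of 39 members apart in this way. The log2 fold change of *Cars* was -0.51 averaged over treatments (SE 0.10, adjusted p = 0.604 from edgeR), -0.48 under vehicle and -0.54 under TCS.

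**Figure D1:**
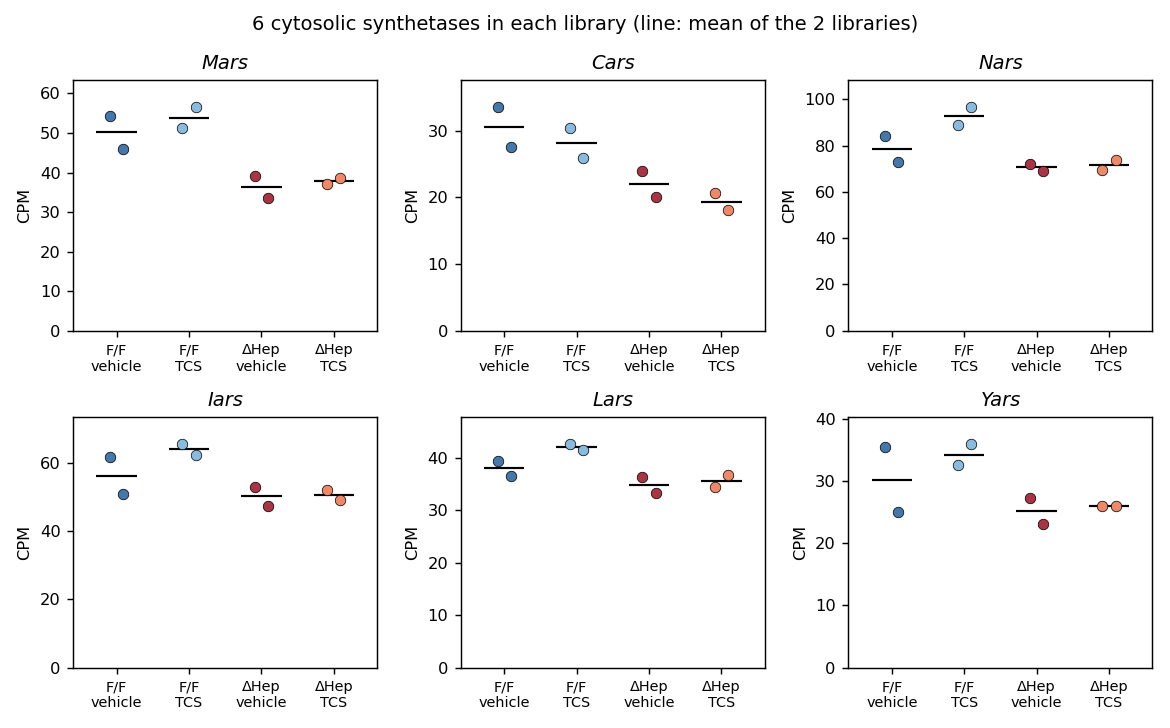
Levels (CPM, linear axes from 0) of the 6 cytosolic synthetases with an unadjusted p under 0.05 for the deletion, with a point for each library and a line at the mean of the 2 libraries of a group. For *Mars* and *Cars* all ΔHep points lie below all F/F points, and for the other 4 genes the second F/F vehicle library lies within the ΔHep range.

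The other 4 genes overlapped between genotypes through 1 F/F library. *Nars*, the asparagine enzyme, was 84.0 and 73.1 CPM in F/F vehicle, 88.9 and 96.8 in F/F TCS, 72.3 and 69.1 in ΔHep vehicle, and 69.7 and 73.7 in ΔHep TCS. *Iars*, the isoleucine enzyme of the complex, was 61.8 and 51.0 CPM in F/F vehicle, 65.7 and 62.5 in F/F TCS, 53.1 and 47.4 in ΔHep vehicle, and 52.1 and 49.2 in ΔHep TCS. For both genes the second F/F vehicle library was the lowest F/F library and lay within the range of the ΔHep libraries. *Lars*, the leucine enzyme of the complex, which is also known as a leucine sensor in mTORC1 signalling, was 39.5 and 36.5 CPM in F/F vehicle, 42.7 and 41.5 in F/F TCS, 36.3 and 33.3 in ΔHep vehicle, and 34.4 and 36.7 in ΔHep TCS. *Yars*, the tyrosine enzyme, was 35.4 and 25.0 CPM in F/F vehicle, 32.5 and 36.0 in F/F TCS, 27.2 and 23.2 in ΔHep vehicle, and 26.0 and 26.0 in ΔHep TCS. The same F/F vehicle library lay within the ΔHep range for *Lars* and *Yars*. The log2 fold changes averaged over treatments were -0.26 for *Nars* (SE 0.06), -0.25 for *Iars* (SE 0.07), -0.18 for *Lars* (SE 0.06) and -0.33 for *Yars* (SE 0.11), with adjusted p of 0.824 or more from edgeR. Without F/F vehicle replicate 1 the value of *Yars* was -0.19 averaged over treatments, and 0.01 under vehicle in place of -0.27.

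*Gars* and *Tars*, which charge glycine and threonine and hold the motif shown above, differed less. *Gars* was 48.5 and 46.2 CPM in F/F vehicle, 43.6 and 49.0 in F/F TCS, and 42.1 to 44.4 in the 4 ΔHep libraries, with a log2 fold change of -0.12 (SE 0.05). *Tars* was 84.7 and 67.3 CPM in F/F vehicle, 76.6 and 89.2 in F/F TCS, 71.6 and 62.4 in ΔHep vehicle, and 74.3 and 75.8 in ΔHep TCS, with a log2 fold change of -0.16 (SE 0.09). The genotypes overlapped for both genes. *Tars* was -0.07 without F/F vehicle replicate 1 and -0.11 without F/F TCS replicate 2, and *Gars* -0.08 without the latter. *Aars*, the alanine enzyme with 2 matches, had a log2 fold change of -0.15 (SE 0.08), and the serine enzyme *Sars* one of -0.13 (SE 0.09). *Eprs*, a fused enzyme for glutamate and proline, was at -0.06 (SE 0.06) and *Wars*, the tryptophan enzyme, which interferon induces in mouse and human, at 0.00 (SE 0.08).

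These 12 enzymes (the 8 above with *Aars*, *Sars*, *Eprs* and *Wars*) are those commonly listed as ATF4 targets. Of them 11 had a log2 fold change below 0 averaged over treatments, with a median of -0.17, beside 6870 of 13633 genes below 0 and a median of 0.00 over all genes tested. All 6 cytosolic members with an unadjusted p under 0.05 were in this list. The 8 other cytosolic enzymes (*Dars*, *Farsa*, *Farsb*, *Hars*, *Kars*, *Qars*, *Rars* and *Vars*) had a median of 0.01, with 3 below 0 and a range from -0.03 for *Dars* to 0.15 for *Farsa*, a subunit of the phenylalanine enzyme. The list was drawn up from general knowledge with earlier results of these data known, so its counts are a description.

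The multisynthetase complex holds some of the cytosolic enzymes together on its scaffold proteins. Of the 8 enzymes of the complex 5 were below 0, with a median of -0.05, and *Mars*, *Iars* and *Lars* had an unadjusted p under 0.05. Of the 12 enzymes outside it 9 were below 0, with a median of -0.12, and *Cars*, *Nars* and *Yars* had such a p. The 3 scaffold proteins had log2 fold changes of 0.03 to 0.08, with *Aimp1* at 15.2 to 19.2 CPM in the TCS libraries and 13.3 to 17.4 CPM in the vehicle libraries.

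The mitochondrial enzymes had a median log2 fold change of 0.05 for the deletion, with 12 of 16 above 0 and a range from -0.04 for *Rars2* to 0.21 for *Pars2*. *Nars2*, the mitochondrial asparagine enzyme, had the smallest p of the class. It was 13.6 and 11.8 CPM in F/F vehicle, 14.4 and 12.8 in F/F TCS, 14.7 and 14.96 in ΔHep vehicle, and 16.8 and 13.9 in ΔHep TCS, with a log2 fold change of 0.19 (edgeR SE 0.09, adjusted p = 1). Its cytosolic counterpart *Nars* was at -0.26, the opposite sign. *Pars2*, for proline, was 5.78 and 6.24 CPM in F/F vehicle, 6.70 and 4.98 in F/F TCS, 7.23 and 6.22 in ΔHep vehicle, and 7.27 and 6.64 in ΔHep TCS. *Aars2*, for alanine, was 25.2 and 21.4 CPM in F/F vehicle, 21.0 and 22.4 in F/F TCS, 27.5 and 21.9 in ΔHep vehicle, and 23.6 and 24.9 in ΔHep TCS. *Cars2*, for cysteine, was 14.3 and 12.5 CPM in F/F vehicle, 12.7 and 12.8 in F/F TCS, 14.9 and 13.9 in ΔHep vehicle, and 14.1 and 12.9 in ΔHep TCS. The libraries of the genotypes overlapped for all 4 genes. Single libraries moved the values of 3 of them. *Pars2* was 0.32 without F/F TCS replicate 1 and 0.11 without F/F TCS replicate 2, and *Cars2* 0.14 without F/F vehicle replicate 1 and 0.04 without F/F vehicle replicate 2. *Aars2*, at 0.12, was 0.19 and 0.07 without F/F vehicle replicates 1 and 2, and 0.04 and 0.20 without ΔHep vehicle replicates 1 and 2. The log2 fold change of *Cars2* was 0.09 (SE 0.08), beside -0.51 for *Cars*, and that of *Mars2* was 0.10 (SE 0.13), beside -0.49 for *Mars*.

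**Figure D2:**
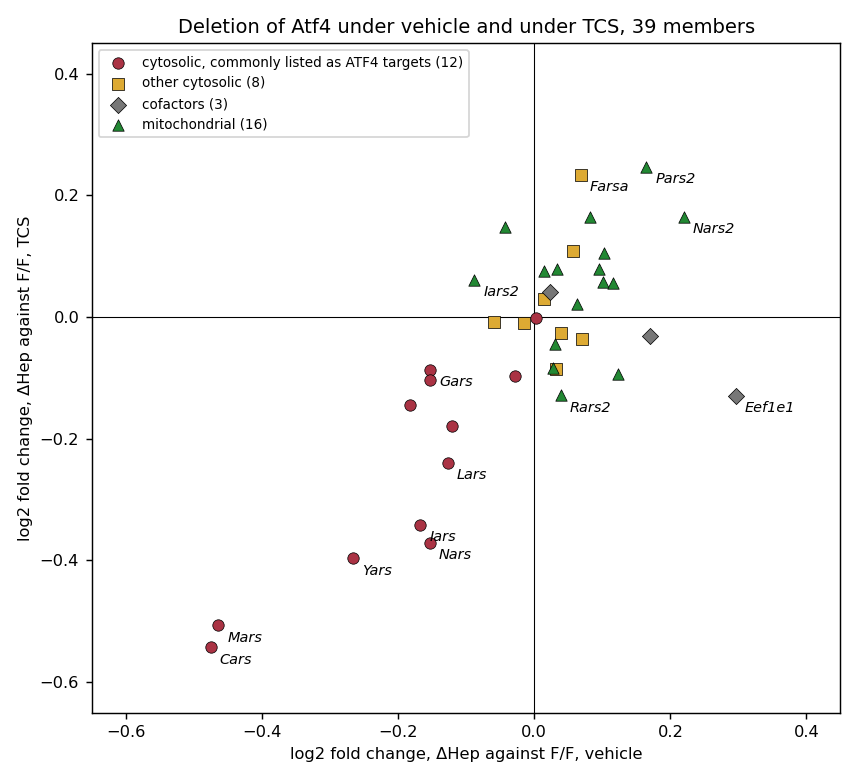
Log2 fold change of ΔHep against F/F under vehicle (x axis) and under TCS (y axis) for the 39 members, with a symbol for each class. *Mars* and *Cars* lie farthest to the lower left, 11 of the 12 enzymes commonly listed as ATF4 targets are below 0 on both axes, and no mitochondrial enzyme is.

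The deletion was also taken under each treatment, in libraries that the other treatment does not share. Under vehicle 0 of 39 members were called, beside 0.0220% of all genes tested, and under TCS 0 of 39, beside 0.0220% as well, with 0 members called by DESeq2 in either. At an unadjusted p under 0.05, *Mars* and *Cars* were lower under vehicle, where 1.58% of all genes were. Under TCS the 6 cytosolic enzymes named above were lower, where 1.75% of all genes were. Of the 12 enzymes commonly listed as targets 11 were below 0 under both treatments, against 2 of the other 8 cytosolic enzymes, 0 of 3 cofactors, 0 of 16 mitochondrial enzymes and 27.3% of all genes tested. In the other direction 10 of the 16 mitochondrial enzymes were above 0 under both, beside 3655 of 13633 genes tested. The median of the 12 was -0.15 under vehicle and -0.21 under TCS, and that of the mitochondrial class 0.07 under both.

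A per-library index describes the same libraries and lists without a fit, and is no separate evidence. It is the median over a list of each gene's log2 CPM minus its mean over the 8 libraries. For the 12 listed enzymes the index was 0.16 and -0.09 in F/F vehicle, 0.19 and 0.16 in F/F TCS, -0.06 and -0.19 in ΔHep vehicle, and -0.11 and -0.07 in ΔHep TCS. The second F/F vehicle library lay inside the ΔHep range. For the mitochondrial enzymes it was -0.04 and -0.11 in F/F vehicle, 0.04 and -0.03 in F/F TCS, 0.02 and -0.08 in ΔHep vehicle, and 0.04 and 0.06 in ΔHep TCS, with the genotypes overlapping. The difference of these indices within a library, listed minus mitochondrial, was 0.20, 0.02, 0.15 and 0.19 in the F/F libraries. It was -0.08, -0.11, -0.15 and -0.13 in the ΔHep libraries, which did not overlap with the F/F libraries. The lists were chosen with earlier results of these data known. How often other pairs of lists separate the genotypes was not tested, so this is a description.

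**Figure D3:**
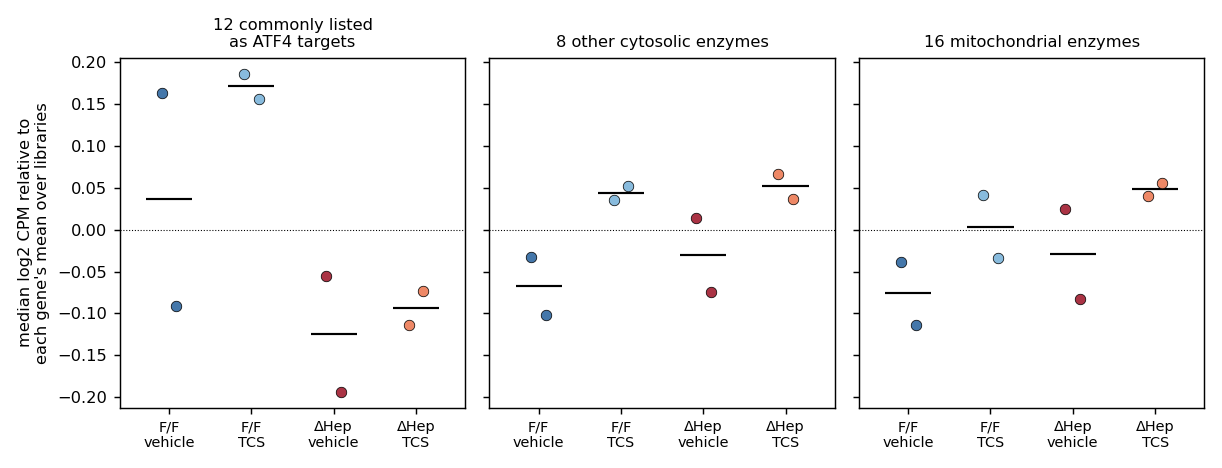
Median of log2 CPM relative to each gene's mean over the 8 libraries, for 3 lists of enzymes, with a point for each library and a line at the mean of a group. The 12 listed enzymes are at -0.19 to -0.06 in ΔHep and at 0.16 to 0.19 in 3 of 4 F/F libraries, while the other cytosolic and the mitochondrial enzymes overlap between genotypes.

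The libraries that stood apart bear on the size of this difference. Without F/F vehicle 2 and ΔHep vehicle 1, the pair with high *Rn45s* (left out after seeing the data), the median of the 12 enzymes was -0.28 averaged over treatments and -0.37 under vehicle, and that of the mitochondrial class 0.02 and -0.04. Leaving out single libraries moved the median of the 12 under vehicle from -0.01 (without F/F vehicle replicate 1) to -0.27 (without F/F vehicle replicate 2), with -0.09 without ΔHep vehicle replicate 2 and -0.24 without ΔHep vehicle replicate 1, and kept it between -0.22 and -0.13 averaged over treatments. Hepatocyte markers had a median log2 fold change of -0.02 for the deletion. Of 14 interferon-induced genes tested 12 were above 0 (median 0.14), and of 8 Kupffer cell markers 7 were (median 0.12). Under vehicle alone 14 and 7 of them were above 0 (medians 0.26 and 0.18). Under TCS 7 and 4 were (medians -0.02 and -0.01). Averaged over treatments, 4 of 4 red cell markers tested were below 0 (median -0.38). So were 5 of 5 bile duct markers (-0.06), 5 of 6 endothelial markers (-0.09) and 10 of 12 proliferation genes (-0.05). In these lists 0 genes were called. Their part in the synthetase levels was not tested.

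Other genes of the pathway were described beside the synthetases. Of 22 other ATF4 target genes tested 19 were below 0 in ΔHep averaged over treatments (median -0.24), beside 6870 of 13633 genes tested. Their log2 fold changes ran from -1.44 to 0.55. At an unadjusted p under 0.05 from edgeR 8 were lower, where 2.07% of all genes were, and 1 was higher, where 1.83% were. Of the 22, 1 passed the test in edgeR, where 0.0440% of all genes did. *Atf5*, a related transcription factor, was 595 and 567 CPM in F/F vehicle, 544 and 522 in F/F TCS, 472 and 476 in ΔHep vehicle, and 399 and 393 in ΔHep TCS, and fell by 0.36 on the log2 scale, with SE 0.04 and an adjusted p of 0.0366 from edgeR. *Asns*, which makes the asparagine that *Nars* charges, was 4.61 and 5.65 CPM in F/F vehicle, 5.80 and 3.26 in F/F TCS, 2.31 and 1.85 in ΔHep vehicle, and 1.64 and 1.42 in ΔHep TCS. Its log2 fold change was -1.44 (SE 0.23, adjusted p = 0.206 from edgeR), and that of *Psat1*, of serine synthesis, -0.58 (SE 0.11, adjusted p = 0.604). In none of the lists of translation and tRNA genes did a gene pass the test. The median was 0.04 for 4 genes of tRNA amidation and formylation in mitochondria, 0.01 for 10 mitochondrial translation factors, -0.03 for 5 cytosolic elongation factors, -0.02 for 17 genes of tRNA making, processing and export, 0.04 for 4 editing factors, 0.05 for 4 selenocysteine factors and 0.00 for 11 regulators of the stress response. Among the smallest p were those of *Mtif3*, a mitochondrial initiation factor (log2 fold change 0.25, SE 0.07), *Guf1*, a mitochondrial elongation factor (-0.20, SE 0.07), and *Trnt1*, which adds the CCA end to tRNA (-0.22, SE 0.08), each with an adjusted p of 1 from edgeR.

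With TCS the median log2 fold change was 0.10 in the cytosolic class (18 of 23 above 0) and 0.05 in the mitochondrial class (12 of 16 above 0), beside -0.01 over all genes tested, and no member passed the test. Averaged over genotypes 0 of 39 members were called by edgeR, where 2.59% of all genes tested were. DESeq2 called 488 genes and 0 of the members that it gave an adjusted p. It gave none to *Aimp2*, *Eef1e1*, *Cars2*, *Mars2*, *Pars2*, *Rars2* and *Wars2*. At an unadjusted p under 0.05, 6 of 39 members were higher with TCS (*Qars*, *Farsb*, *Rars*, *Hars*, *Vars2* and *Iars2*), where 9.41% of all genes were higher at that level, and 0 were lower, where 7.75% were. The 2 mitochondrial enzymes of these make 2 of 16 and the 4 cytosolic ones 4 of 23. None of the 4 cytosolic enzymes is among the 12 commonly listed as ATF4 targets.

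*Vars2*, the mitochondrial valine enzyme, had the smallest p. It was 28.8 and 27.4 CPM in F/F vehicle, 31.1 and 29.9 in F/F TCS, 27.3 and 27.3 in ΔHep vehicle, and 32.9 and 34.6 in ΔHep TCS. All 4 TCS libraries were above all 4 vehicle libraries, and its log2 fold change was 0.21 (SE 0.06, adjusted p = 0.103 from edgeR). *Iars2*, for isoleucine, was 93.2 and 95.8 CPM in F/F vehicle, 96.3 and 97.4 in F/F TCS, 88.7 and 89.2 in ΔHep vehicle, and 103 and 99.6 in ΔHep TCS, with a log2 fold change of 0.11 (edgeR SE 0.04, adjusted p = 0.206). *Yars2*, for tyrosine, was 14.3 and 14.6 CPM in F/F vehicle, 16.3 and 18.8 in F/F TCS, 15.9 and 15.7 in ΔHep vehicle, and 17.1 and 15.8 in ΔHep TCS. *Iars2* did not overlap between treatments, whereas *Yars2* did. *Iars2* shares 22.9% of its exon length with *Rab3gap2* on the opposite strand, and *Vars2* 8.52% with *Gm20483*, also on the opposite strand.

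In the cytosolic class *Qars*, the glutamine enzyme of the complex, was 40.5 and 37.4 CPM in F/F vehicle, 43.1 and 45.9 in F/F TCS, 43.2 and 35.5 in ΔHep vehicle, and 49.7 and 41.6 in ΔHep TCS. *Farsb*, the other subunit of the phenylalanine enzyme, was 32.7 and 28.6 CPM in F/F vehicle, 34.3 and 33.6 in F/F TCS, 31.8 and 28.9 in ΔHep vehicle, and 33.8 and 33.8 in ΔHep TCS. *Rars*, the arginine enzyme of the complex, was 36.2 and 37.3 CPM in F/F vehicle, 38.8 and 40.3 in F/F TCS, 36.1 and 40.2 in ΔHep vehicle, and 44.5 and 41.0 in ΔHep TCS. Only *Farsb*, which shares 9.47% of its exon length with *Sgpp2* on the opposite strand, separated the treatments among the cytosolic enzymes. Their log2 fold changes were 0.20 (SE 0.08), 0.15 (SE 0.07) and 0.13 (SE 0.06), each with an adjusted p of 0.265 or more, and *Qars* was 0.13 without ΔHep TCS replicate 1. With *Farsb*, *Ears2* (glutamate), *Iars2* and *Vars2*, 4 of 39 members were higher in all TCS libraries than in all vehicle libraries, where 7.0% of all genes were, and 0 were lower, where 5.0% were.

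**Figure D4:**
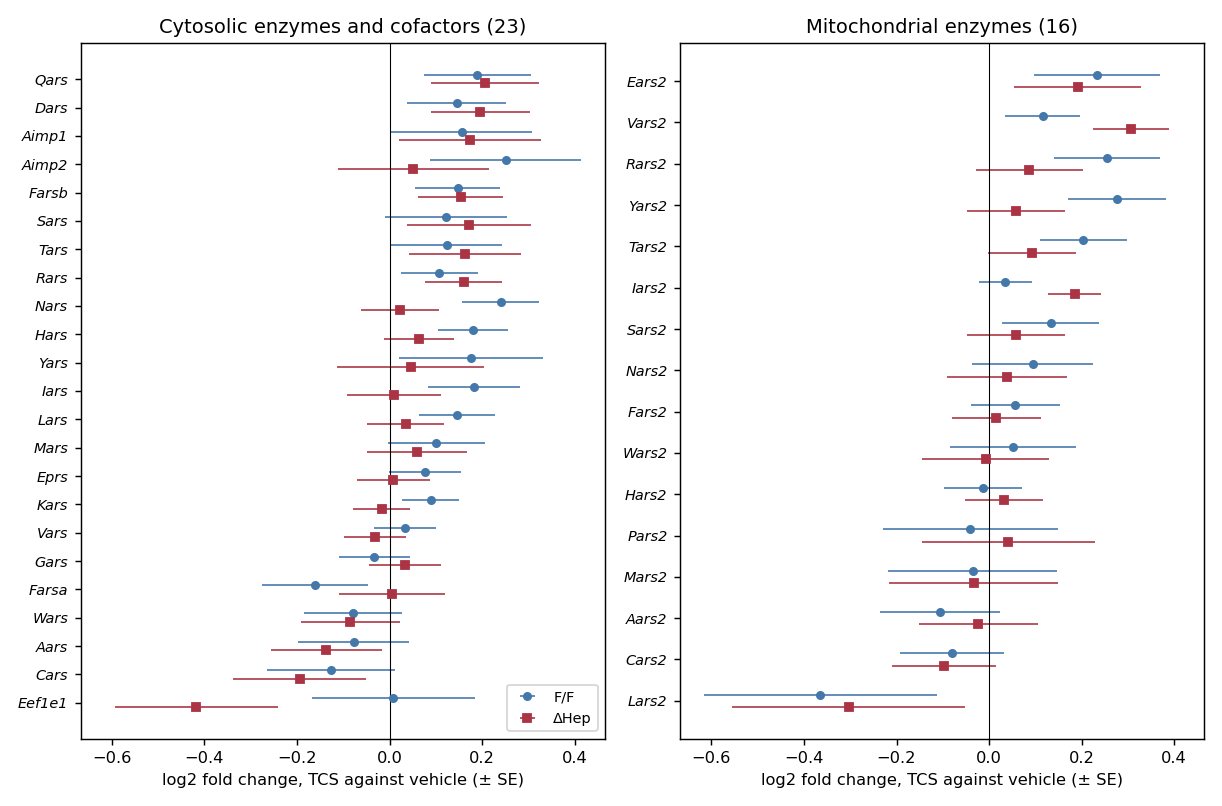
Log2 fold change of TCS against vehicle (± SE from edgeR) for each member, in F/F (circles) and in ΔHep (squares) mice, ordered by the average. The lowest values are those of *Eef1e1* in ΔHep (-0.42) and of *Lars2* in F/F (-0.36) and ΔHep (-0.30), and the highest is that of *Vars2* in ΔHep (0.31).

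By genotype, 0 of 39 members were called for TCS in F/F, beside 0.557% of all genes, and 0 of 39 in ΔHep, beside 0.675%. At an unadjusted p under 0.05, *Nars*, *Hars* and *Yars2* were higher with TCS in F/F, where 5.73% of all genes were. In ΔHep *Vars2* and *Iars2* were, where 6.56% of all genes were, and *Eef1e1* had a log2 fold change of -0.42 (unadjusted p = 0.043 from edgeR). The cytosolic class had a median of 0.12 in F/F and 0.03 in ΔHep, and the mitochondrial class 0.05 and 0.04. In F/F the cytosolic median was 0.01 once the sex makeup of the pools was a term of the fit, and -0.01 without F/F vehicle replicate 2, with 0.05 without F/F TCS replicate 2 and 0.20 without F/F vehicle replicate 1. In ΔHep it was -0.03 without ΔHep vehicle replicate 2 and 0.10 without ΔHep vehicle replicate 1. All 7 hepatocyte markers tested had a log2 fold change below 0 with TCS (median -0.15), and the sum over the list was 132958 to 149662 CPM in the TCS libraries and 151106 to 162868 in the vehicle libraries. Kupffer cell markers (8 of 8 below 0, median -0.26), neutrophil markers (7 of 7 below 0, median -0.64), red cell markers (4 of 4 below 0, median -0.43) and pancreatic acinar markers (6 of 6 above 0, median 2.07, sum 6.19 to 58.0 CPM) lay to one side of 0 with TCS as well. Of these lists only the acinar one held genes that passed the test in edgeR, 2 of 6, both higher with TCS. In these bulk samples fewer cells of a type and less RNA per cell cannot be told apart, and the part of cell makeup in the synthetase levels was not tested.

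The test of whether the effect of TCS differed between genotypes called 0 of 39 members and 0 of 13633 genes (0%) in edgeR, and 0 in DESeq2. At an unadjusted p under 0.05 it gave 0 members, where 2.07% of all genes had such a p. The smallest p among members were those of *Iars2* (0.0956, difference of log2 fold changes 0.15), *Nars* (0.0995, -0.22) and *Eef1e1* (0.123, -0.43), unadjusted and from edgeR. *Eef1e1*, a scaffold protein of the complex, was 6.49 and 5.32 CPM in F/F vehicle, 5.62 and 6.29 in F/F TCS, 7.73 and 6.82 in ΔHep vehicle, and 5.11 and 5.72 in ΔHep TCS. For *Nars* the 95% interval of the difference was -0.49 to 0.05, which holds 0, beside a log2 fold change with TCS of 0.24 in F/F.

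Among related genes, 2 of 22 other ATF4 target genes passed the test in edgeR with TCS averaged over genotypes, both higher. Of all genes tested 2.59% were called, 276 higher and 77 lower. *Gdf15*, a stress hormone, was higher by 1.13 on the log2 scale (edgeR SE 0.15, adjusted p = 0.00569) and *Vldlr*, a lipoprotein receptor, by 0.42 (SE 0.08, adjusted p = 0.0307). The list as a whole had a median of 0.00, with 11 genes on either side of 0. In F/F 19 of 22 were above 0 with TCS (median 0.11), beside 6701 of 13633 genes tested. In ΔHep 11 of 22 were (median 0.01), beside 6663 genes. For the difference between genotypes 14 of 22 were below 0, beside 6756 of 13633 genes tested. At an unadjusted p under 0.05 from edgeR it gave 0 genes of the list, where 2.07% of all genes had such a p. The F/F comparison set pools with *Xist* against pools nearly without it, and the part of sex makeup in this list was not tested. Of the list 0 genes were called in F/F, where 0.557% of all genes were. *Gdf15* was the 1 gene called in ΔHep, where 0.675% of all genes were. Among mitochondrial translation factors 9 of 10 were above 0 (median 0.09) and 0 passed the test. *Tufm*, the mitochondrial elongation factor that brings the charged tRNA to the ribosome, was 124 and 130 CPM in F/F vehicle, 138 and 139 in F/F TCS, 126 and 125 in ΔHep vehicle, and 140 and 138 in ΔHep TCS (log2 fold change 0.14, SE 0.04, adjusted p = 0.129 from edgeR). It is given because it had the smallest p of these factors. All 4 TCS libraries were above the vehicle libraries, which held for 954 of 13633 genes tested. Another 682 genes were lower in all TCS libraries than in all vehicle libraries.

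*Lars2* differed most of all members between the libraries of one group, and it is described for that reason, chosen after its values were seen. It was 92.9 and 152.5 CPM in F/F vehicle, 92.7 and 97.5 in F/F TCS, 153.9 and 93.3 in ΔHep vehicle, and 104.6 and 96.1 in ΔHep TCS. The 2 high libraries are those with high *Rn45s*, a gene that is no member, and the other 6 were between 92.7 and 104.6 CPM. The log2 fold change with TCS was -0.33 averaged over genotypes (SE 0.18, adjusted p = 0.378 from edgeR). It was -0.13 without either one of these libraries and 0.07 without both. A common cause of both high values was not tested. In the mean level of 9.96 CPM per kb given above, these 2 libraries are included.

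**Figure D5:**
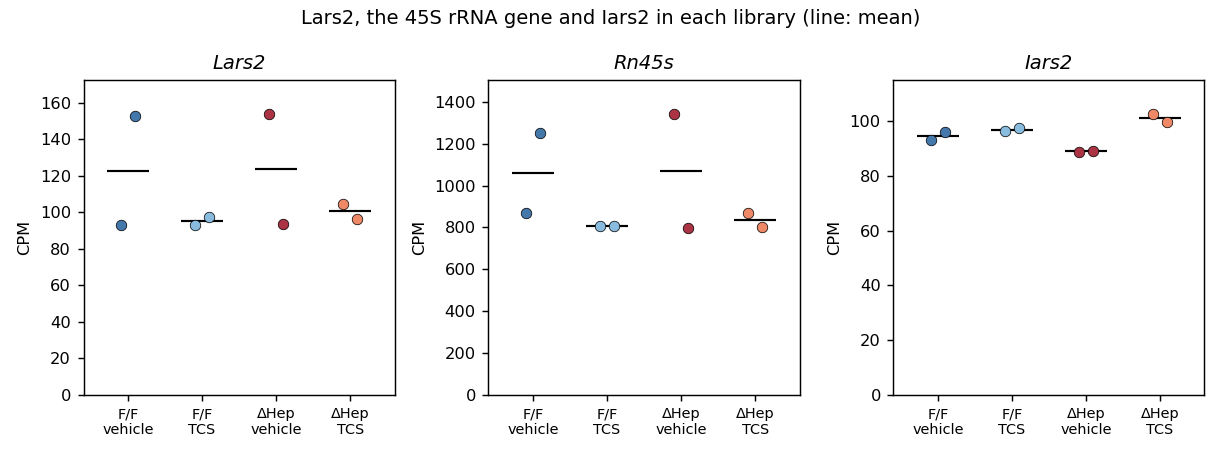
Levels (CPM, linear axes from 0) of *Lars2*, of the 45S rRNA gene *Rn45s* and of *Iars2* in each library, with a line at the mean of a group. The same 2 libraries are high in *Lars2* (152.5 and 153.9 CPM) and in *Rn45s* (1250 and 1344 CPM), and *Iars2* is not high in them.

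The remaining members are given by their log2 fold changes. *Dars*, *Kars* and *Vars*, for aspartate, lysine and valine, had log2 fold changes of -0.03, 0.02 and 0.01 for the deletion and of 0.17, 0.04 and 0.00 for TCS, averaged over the other factor. *Hars2*, *Fars2*, *Sars2*, *Tars2*, *Wars2* and *Ears2* lay between -0.03 and 0.09 for the deletion and between 0.01 and 0.21 for TCS. *Aimp2*, at 9.23 to 12.6 CPM, shares 29.4% of its exon length with *Eif2ak1* on the opposite strand, *Aars* 14.3% with *Exosc6* on the same strand, and *Hars* and *Hars2* 195 bases with each other, so that these levels may hold reads of the partner. *Iars* shares 7.15% of its 50-base stretches with *Gm4849*.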

How the data were processed

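RNA of neonatal mouse liver was sequenced as 8 libraries, 2 in each of 4 groups, each from 2 mice. The authors deposited raw read counts for 24411 gene symbols, made per the labels with bcl2fastq 2.20 and STAR 2.7.9a on build mm10. For the counter, its annotation and its use of strand, the sources used here give nothing. Tables of normalised values and of the authors' own comparisons (fold changes and p values) were not used.

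Groups came from the sample labels. Counts were fitted in edgeR 4.0.16 (R 4.3.3) with TMM scaling, 1 mean per group and quasi-likelihood tests over 13633 genes that passed filterByExpr (count minimum 10, total 15), with Benjamini-Hochberg adjustment over all of them and a threshold of 0.05. The code was tested on simulated data. Library totals of 11624143 to 25573210 counts, 4 residual degrees of freedom and pooled mice limit precision.

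Replicate libraries differed beyond counting noise. Alternatives were DESeq2 1.42.0, RLE size factors, no filter, only the compared libraries, a sex makeup covariate, a replicate block and leaving out libraries. The members and lists were chosen with earlier results of these data known. Members given library by library were the 8 cytosolic and 4 mitochondrial ones with the smallest p for the deletion, 3 of each for TCS and 3 for the difference between genotypes.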

Additional observations from a re-analysis of the deposited data

How the results depend on the processing

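No member was called by edgeR in any comparison when single libraries were left out (0 in each of 8 fits), nor with the covariate, the block or RLE size factors. For the deletion averaged over treatments, 1 member was called with no filter on low counts and 2 with DESeq2. *Mars* stayed between -0.54 and -0.42 and *Cars* between -0.58 and -0.43 when single libraries were left out. The cause of the changes below was not tested.

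The number of genes called moved more. For the deletion under vehicle it was 3, with 5 in DESeq2 and 5 with the sex makeup covariate. Under TCS it was 3, with 5 under no filter and 7 in DESeq2. Averaged it was 6, with 12 in DESeq2 and 2 without both libraries of high *Rn45s*. For TCS in F/F it was 76, with 139 under no filter, 33 in the compared libraries alone, 167 in DESeq2, 20 with the covariate and 22 without both libraries. In ΔHep it was 92, with 200, 189, 219 and, without both libraries, 5. Averaged it was 353, with 538 under no filter, 111 with the covariate and 72 without both libraries, and the difference between genotypes called 1 gene with the covariate. Leaving out 1 library gave 2 to 3 genes for the deletion under vehicle, 2 to 31 under TCS (31 without F/F TCS replicate 1), 3 to 4 averaged, 33 to 165 for TCS in F/F (165 without F/F TCS replicate 1), 11 to 107 in ΔHep (11 without ΔHep vehicle replicate 1), 107 to 363 averaged (107 without ΔHep vehicle replicate 2) and 0 for the difference.

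Without both libraries of high *Rn45s*, each vehicle group is 1 library, assumed to vary like the other groups. The cytosolic median was then -0.18 for the deletion under vehicle, -0.12 averaged, -0.0065 for TCS in F/F and 0.12 for the difference between genotypes. The mitochondrial median was -0.044 for the deletion under vehicle, 0.12 for TCS in ΔHep and 0.068 for the difference, and the median of the 12 listed enzymes -0.37 and -0.28. With the covariate the mitochondrial median of the deletion under vehicle was 0.011, the cytosolic one of TCS in F/F 0.011, and those of the difference 0.045 and 0.062, beside -0.06 and -0.03.

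Leaving out 1 library moved the cytosolic median from -0.14 to 0.033 for the deletion under vehicle, -0.12 to -0.05 under TCS, -0.08 to 0.00 averaged, -0.0061 to 0.20 for TCS in F/F, -0.03 to 0.10 in ΔHep, 0.05 to 0.14 averaged and -0.14 to 0.064 for the difference. The mitochondrial median moved from 0.0035 to 0.14, 0.03 to 0.09, 0.04 to 0.07, 0.010 to 0.14, 0.018 to 0.12, 0.023 to 0.095 and -0.090 to 0.036 in the same order. The median of the 12 moved from -0.27 to -0.014 under vehicle, -0.28 to -0.20 under TCS and -0.22 to -0.13 averaged.

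Signs turned for *Yars* under vehicle (0.010 without F/F vehicle replicate 1, the range over single libraries being -0.49 to 0.010) and for *Aars2* under vehicle (-0.075 with the covariate, -0.028 without F/F vehicle replicate 2, -0.091 without ΔHep vehicle replicate 1 and 0.23 without ΔHep vehicle replicate 2, -0.20 without both libraries of high *Rn45s*) and averaged (-0.018 without both). *Cars2* under vehicle was -0.045 without both. *Lars2* with TCS was -0.68 to 0.035 in F/F when single libraries were left out (0.035 without F/F vehicle replicate 2) and 0.034 without both, -0.62 to 0.10 in ΔHep (0.10 without ΔHep vehicle replicate 1) and 0.10 without both, and 0.069 averaged without both. Levels per kb of the longest transcript were 16.1 for cytosolic enzymes, 4.17 for cofactors and 6.89 for mitochondrial enzymes.

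No label says whether replicate numbers pair the libraries. Across genes, deviations of same-numbered libraries correlated at 0.34 between the vehicle groups of the genotypes and at 0.37 between the TCS groups. Between groups of unlike treatment they correlated at -0.43 to -0.11. Pairing within a treatment was not tested, since the block below spans both treatments. With the number as a replicate block, 3 genes were called for the deletion averaged over treatments, with *Mars* at -0.48 and *Cars* at -0.50, and no member was called in any comparison.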
